A study of Mus musculus with 2 samples.

Results

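Malat1, Neat1, Kcnq1ot1, Gm42418 and AY036118 are 5 of the 31053 genes counted in single-cell RNA libraries of perivascular adipose tissue, the fat that sheathes the aorta. They were chosen by name, as long noncoding RNAs that stay in the nucleus and as genes that lie over ribosomal RNA sequence, with their levels in these libraries already known. Their levels below are therefore descriptions. There were 2 libraries, both from wild-type mice, 1 labelled young and 1 labelled old, so that age and library cannot be told apart and no difference has a replicate check. The stromal cells had been freed with collagenase, and the libraries made with the 10x Genomics Chromium 3′ chemistry. The sources used here do not give the ages or the number of mice.

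Malat1 RNA gathers in nuclear speckles, the compartments that hold splicing factors, and is among the most abundant RNAs of most mouse cells. Neat1 RNA is the scaffold of paraspeckles, nuclear bodies built on its long isoform. Kcnq1ot1 RNA is made from the paternal chromosome, antisense to the potassium channel gene Kcnq1, and silences the genes around it in cis. Gm42418 and AY036118 have no such described role: they are gene models placed over a copy of ribosomal RNA sequence, and ribosomal RNA has no poly(A) tail of the kind that the oligo(dT) primers of a 3′ library are meant to catch. Because nuclear RNA stays behind when a cell loses its cytoplasm, levels of Malat1 relative to mitochondrial and ribosomal protein transcripts are commonly used to judge the state of droplets.

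In the GENCODE vM21 annotation of GRCm38 (mm10), Malat1 lay on the minus strand of chromosome 19 from 5795690 to 5802672, and Neat1 on the same strand from 5824708 to 5845478. Both are annotated as lincRNA. Kcnq1ot1, annotated as antisense, lay on the minus strand of chromosome 7 from 143203458 to 143296549. Gm42418 lay on the plus strand of chromosome 17 from 39846958 to 39848788 and AY036118 on the minus strand from 39847113 to 39848035, both annotated as lincRNA. All 923 bases of AY036118 fall inside Gm42418 on the opposite strand, and all 1831 bases of Gm42418 fall inside CT010467.1, an annotated rRNA gene on the strand of AY036118. RefSeq lists the name Gm42418 as a synonym of Rn18s-rs5, a pseudogene. These strands are those of the annotation, and which strand reads as ribosomal RNA was not analysed here. The sources used here do not say whether the counting used strand, and without strand, reads over the 923 shared bases cannot be assigned to one of Gm42418 and AY036118. AY036118 covers 50.4% of Gm42418. Although it lies wholly within the shared bases, AY036118 was assigned 4739 UMIs in kept young cells and 64345 in kept old cells.

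The stretches below are shown because oligo(dT) can prime on runs of A inside an RNA as well as on its tail. They were read from the GENCODE transcripts, 5′ to 3′ along each RNA in DNA letters. Capitals mark the longest run of A in Malat1, with the A-rich bases after it, and in Kcnq1ot1. In Neat1 they mark the A-rich 3′ end of the long isoform, and in the other two genes the 20 bases richest in A. The stretches are Malat1 at chr19:5795968-5796024, Neat1 at chr19:5824708-5824767, Kcnq1ot1 at chr7:143226925-143227010, Gm42418 at chr17:39847147-39847206 and AY036118 at chr17:39847221-39847280.
Malat1: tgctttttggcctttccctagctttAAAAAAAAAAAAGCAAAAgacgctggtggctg
Neat1: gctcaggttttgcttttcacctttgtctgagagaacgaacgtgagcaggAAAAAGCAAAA
Kcnq1ot1: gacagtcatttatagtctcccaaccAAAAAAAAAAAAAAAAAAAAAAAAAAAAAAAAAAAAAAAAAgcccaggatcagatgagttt
Gm42418: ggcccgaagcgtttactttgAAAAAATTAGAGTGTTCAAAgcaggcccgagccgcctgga
AY036118: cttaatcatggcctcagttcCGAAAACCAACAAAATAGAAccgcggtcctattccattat
Gm42418, opposite AY036118: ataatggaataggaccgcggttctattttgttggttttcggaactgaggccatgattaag

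The longest run of A was 41 bases in Kcnq1ot1 and 12 in Malat1, and a run of at least 12 was found in 7.66% of the 30934 genes with a transcript sequence. Neat1 had 7 in a row, Gm42418 6 and AY036118 4. The 20 bases richest in A held 20 in Kcnq1ot1, 17 in Malat1, 17 in Neat1, 13 in AY036118 and 11 in Gm42418. Those of Neat1 start at base 11362 of the long isoform and are not shown. The last line shows the Gm42418 strand over the bases of the AY036118 line, where the A-rich stretch reads as T. Where the reads began was not analysed here, so these runs describe the sequences only.

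Cells with at least 500 genes and at most 10% mitochondrial counts were kept after doublet removal, 11453 of 13104 young and 12207 of 14636 old barcodes, with medians of 8916 and 9230 unique molecular identifiers (UMIs, the counted RNA copies). The same sequence of cell barcode occurred in both libraries 275 times. Cells were placed in classes by at least 4 of 10 class markers, which gave 10694 young and 10513 old mesenchymal cells. The other classes were mesothelial cells (357 and 63), Schwann cells (90 and 91), blood endothelial cells (34 and 1084), adipocytes (7 and 113) and macrophages (1 and 97). In each of these classes with at least 50 cells all 10 of its markers were detected. The summed mesenchymal markers stood at 11032 and 12070 CPM (UMIs scaled to 1000000 of the class) in mesenchymal cells, where those of macrophages stood at 13.8 and 31.0 CPM and those of blood endothelium at 28.0 and 53.1 CPM. The other classes were less pure. Mesenchymal markers summed to 8854 and 8269 CPM in mesothelial cells, whose own markers summed to 1401 and 1360 CPM, and to 8023 and 9498 CPM in Schwann cells, with their own at 1472 and 2056 CPM. In the old library they stood at 3705 CPM in blood endothelial cells (own markers 2845 CPM), 3198 CPM in macrophages (8215 CPM) and 4381 CPM in adipocytes (8628 CPM). How much of this is mesenchymal RNA from other cells was not tested. The 5 RNAs together took 2.66% of the UMIs of kept young cells and 2.44% of those of kept old cells.

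Malat1 was the gene with the most UMIs in either library. In mesenchymal cells its young level was 25856 CPM (95% interval 25826 to 25887) and its old level 22369 CPM (22341 to 22397), a log2(old/young) of -0.21. All such intervals are exact Poisson intervals and cover counting error only. For Malat1 they are far too narrow to stand for cells: between mesenchymal cells its UMIs varied 181 times as much as counting alone would give in the young library and 123 times in the other. The median cell held 21503 CPM in the young library, and 80% of cells lay between 6544 and 52821 CPM. The median old cell held 20747 CPM, and 80% lay between 7659 and 47046 CPM, so the 2 distributions overlapped over most of their range.

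In mesothelial and Schwann cells Malat1 went the other way. Mesothelial cells, which line the body cavities, held 26170 CPM among young and 36364 CPM among old cells (log2 0.47, 0.45 to 0.50). Schwann cells, the glia of peripheral nerve, held 12503 and 19692 CPM (log2 0.66, 0.61 to 0.70). Both of these classes also held the mesenchymal markers, in Schwann cells at 8023 CPM in young and 9498 CPM in old cells, and their part in the Malat1 values was not tested. Blood endothelial cells held 21233 CPM in the 34 young cells and 14044 CPM in the old ones. Within the mesenchymal cells the old level was lower in cycling cells, at 22131 and 17671 CPM, and in contractile cells, at 27006 and 18806 CPM. The order of classes in the old library ran from mesothelial through mesenchymal cells, adipocytes (20442 CPM), Schwann cells and macrophages (14800 CPM) to blood endothelial cells. No neighbours in that order had overlapping counting intervals, but the spread between cells was much wider than those intervals in each class measured.

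Neat1 stood at 672 CPM (667 to 677) in young and 803 CPM (797 to 808) in old mesenchymal cells, log2 0.26 (0.24 to 0.27). Its level followed the cell class. In the old library it was 3.03-fold lower in blood endothelial cells (265 CPM) than in mesenchymal cells. Adipocytes held 699 CPM, while Schwann cells (521 CPM), macrophages (514 CPM) and mesothelial cells (507 CPM) formed a group whose counting intervals overlapped. In the young library the order was mesenchymal, mesothelial (529 CPM), Schwann (378 CPM) and blood endothelial cells (334 CPM, 34 cells), the last pair overlapping. Schwann cells were at log2 0.46 (0.20 to 0.72) in the old against the young library, and mesothelial cells at -0.06 (-0.24 to 0.11).

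Kcnq1ot1 was close in the 2 libraries, at 51.7 CPM (50.3 to 53.1) in young and 55.8 CPM (54.4 to 57.3) in old mesenchymal cells. The log2 ratio was 0.11 with total UMIs as the scale and -0.01 with median-of-ratios size factors, so it has no direction that holds across scalings. In the old library it stood between 36.4 CPM in Schwann cells and 73.9 CPM in mesothelial cells, apart from macrophages, where 6 UMIs gave 8.84 CPM (3.24 to 19.2). Macrophages were 6.32-fold below mesenchymal cells of the same library. In young Schwann cells 14 UMIs gave an interval of 10.9 to 33.5 CPM, also below the young mesenchymal level.

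AY036118 and Gm42418 differed most between the libraries. AY036118 stood at 42.1 CPM (40.8 to 43.3) in young and 508.5 CPM (504.3 to 512.7) in old mesenchymal cells, 12.1-fold higher (log2 3.60, 3.55 to 3.64). Gm42418 stood at 262 CPM (259 to 265) and 1665 CPM (1658 to 1673), 6.36-fold higher (log2 2.67, 2.65 to 2.69). These 2 of the 5 members, and no other, were at least 1.5-fold higher in old mesenchymal cells, and 0 were as much lower. Over all 15202 genes with at least 20 UMIs there, 19.8% were at least 1.5-fold higher and 12.4% lower, or 15.5% and 15.4% with median-of-ratios scaling. The median gene was at log2 0.13, which that scaling moved to 0.00. Since the members were chosen with these ratios known, nothing is read from the comparison of the counts.

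**Figure D1:**
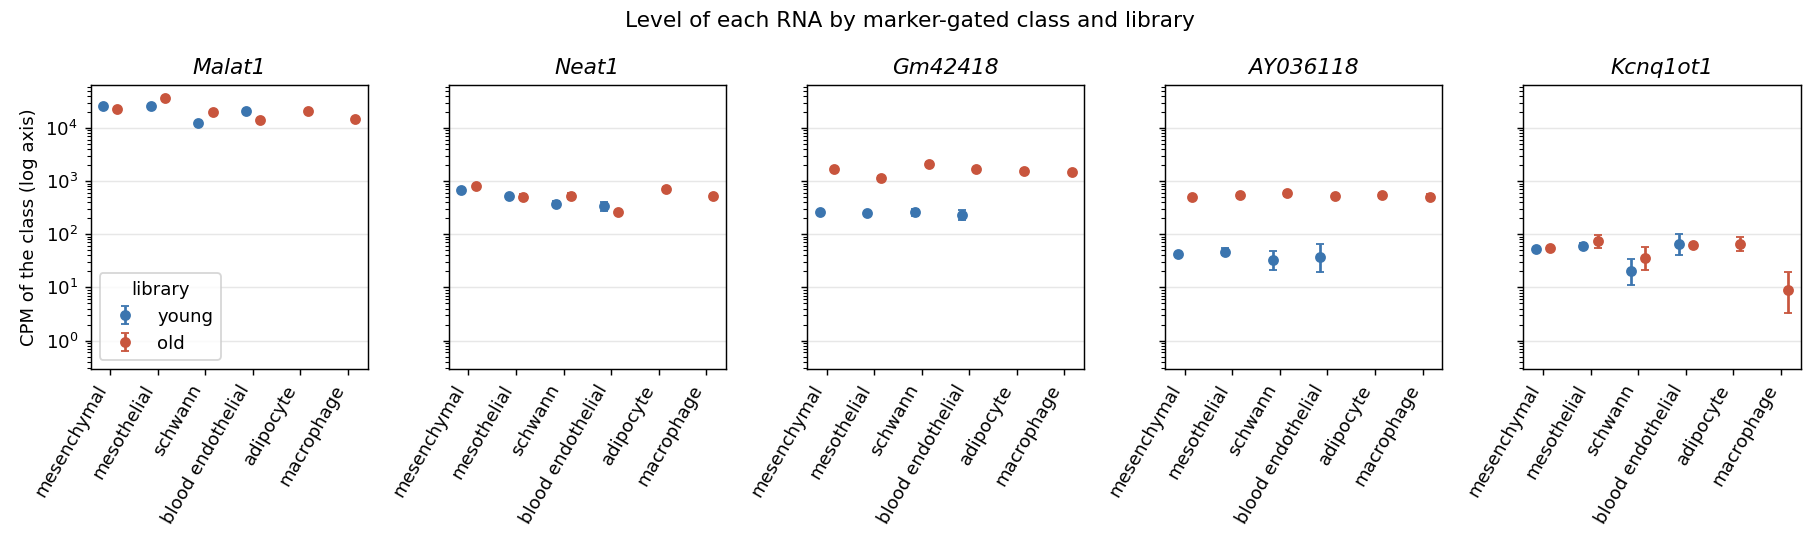
CPM (log axis) for each of the 5 RNAs in 6 marker-gated classes, young library in blue and old in red, with exact Poisson 95% intervals; classes with under 30 cells in a library are not drawn. AY036118 lies at 508.5 to 585 CPM in every old class and Gm42418 at 1168 to 2129 CPM, while Malat1, Neat1 and Kcnq1ot1 differ between classes in both libraries.

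The same 2 genes stood far above the young level in every class that both libraries held. In mesothelial cells AY036118 was at a young level of 47.0 and an old level of 540 CPM (log2 3.52, 3.26 to 3.79), and Gm42418 at 248 and 1168 CPM (log2 2.23, 2.09 to 2.37). In Schwann cells AY036118 was at 32.8 and 585 CPM (log2 4.16, 3.54 to 4.84), and Gm42418 at 260 and 2129 CPM (log2 3.04, 2.81 to 3.27). In blood endothelial cells, with 34 young cells, AY036118 was at 37.1 and 514 CPM and Gm42418 at 232 and 1653 CPM. In mesothelial cells 2 of the 5 members were at least 1.5-fold higher and 0 lower, where 15.4% of genes were higher and 17.3% lower. In Schwann cells it was 4 of 5 and 0, where 19.5% of genes were higher and 13.1% lower, with Malat1 at 1.57-fold and Kcnq1ot1 at 1.82-fold on 14 and 17 UMIs.

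**Figure D2:**
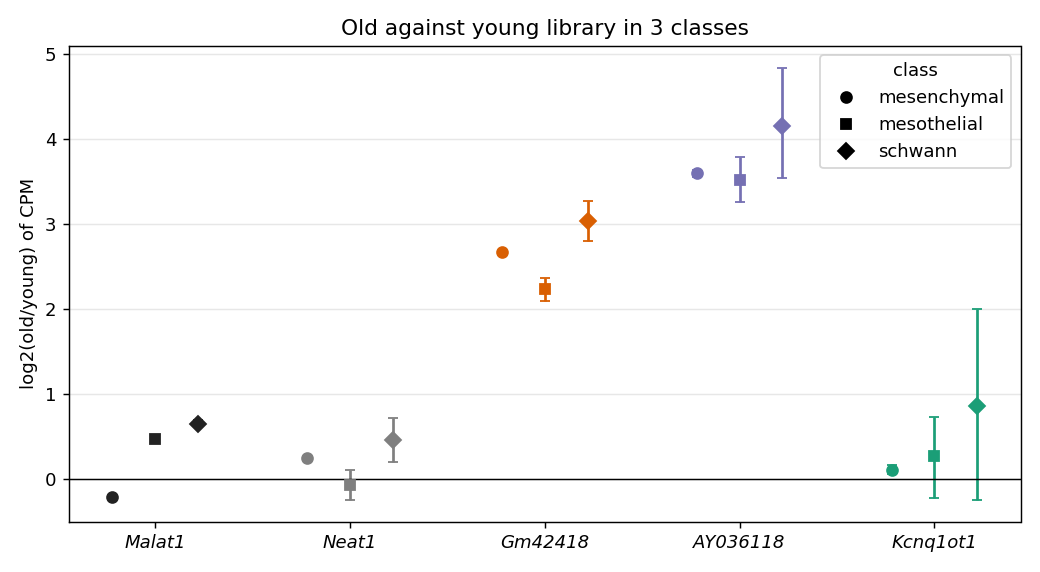
The log2(old/young) of CPM for each RNA in mesenchymal (circles), mesothelial (squares) and Schwann cells (diamonds), with exact conditional Poisson 95% intervals. Gm42418 and AY036118 lie between 2.23 and 4.16 in all 3 classes, Malat1 lies below 0 in mesenchymal cells and above 0 in the other two, and the Kcnq1ot1 intervals of mesothelial and Schwann cells span 0.

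The level of AY036118 in the old library hardly depended on what kind of cell it was counted in. It was 508.5 CPM in mesenchymal cells, 512 in macrophages, 514 in blood endothelial cells, 540 in mesothelial cells, 542 in adipocytes and 585 in Schwann cells, and each neighbour in that order had an overlapping interval. The highest class was 1.15-fold above the lowest. Of the 223 genes with at least 200 UMIs in each of those 6 old classes, 0 had a smaller range, and the median range was 2.23-fold. The summed mesenchymal markers in these classes ran from 3198 to 12070 CPM. Gm42418 spanned 1.82-fold, with 50 genes of smaller range, Malat1 2.59-fold with 147, and Neat1 3.03-fold with 177. A further 14 old cells gated as striated muscle held 604 CPM of AY036118 (481 to 747), 948 CPM of Gm42418 (794 to 1125) and 11115 CPM of Malat1. In the young library AY036118 spanned 1.43-fold over 3 classes, on 23 UMIs in Schwann cells, and Gm42418 1.05-fold.

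In the old library it hardly depended on the single cell either. The squared deviation of a cell's UMIs from its class share, over that expected from counting, is 1 where cells differ by counting alone. For AY036118 this value was 0.985 in young and 1.03 in old mesenchymal cells, and it lay between 0.726 and 1.09 in the other classes. In the old library it was the lowest of the 211 genes with a mean within 1.5-fold of its own 5.31 UMIs per cell, whose median was 1.85. In the young library, at a mean of 0.419 UMIs per cell, 3 of 1896 such genes lay lower. Their median was 1.08, so values near 1 were common there. Neat1 stood at 4.78 and 4.86, and Kcnq1ot1 at 1.22 and 1.24.

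Gm42418 behaved differently from the gene inside it. Its value was 1.35 in the young library, where 152 of 401 genes of like mean lay lower, and 13.7 in the old library, where 50 of 60 did. The median old mesenchymal cell held 1198 CPM, and 80% of cells lay between 657 and 3277 CPM. The median young one held 239 CPM, so a limit in CPM lies further above the young level than above the old. Cells with at least 4000 CPM, a limit set after the values were seen, numbered 630 of 10513 in the old library (5.99%, Clopper-Pearson interval 5.55 to 6.46) and 0 of 10694 in the young. A count of 0 allows a young share of up to 0.0281% by the limit of 3 counts, or 0.0345% as the Clopper-Pearson upper bound. These bounds cover the counting of cells within 1 library only, and the young 0 goes with the lower young level. Those 630 cells were picked by Gm42418, which fixes its own contrast of 6178 CPM against 1422 CPM in the other old mesenchymal cells. AY036118 stood at 595 against 504 CPM.

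**Figure D3:**
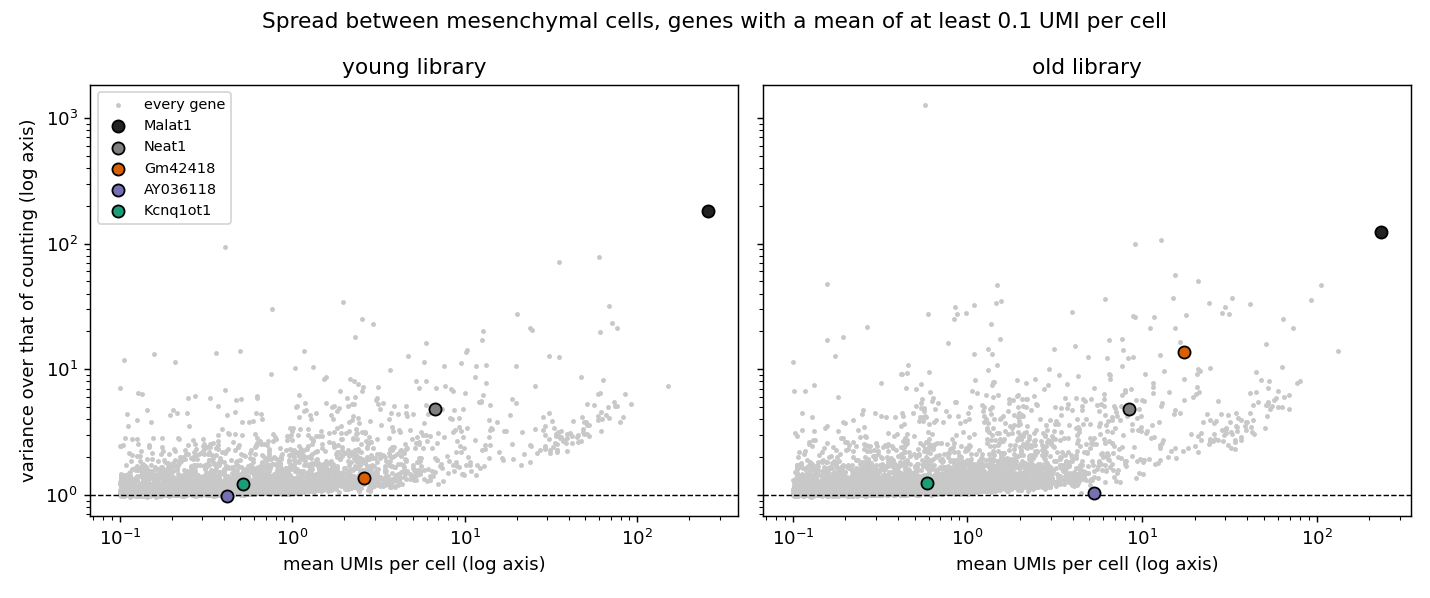
Variance between mesenchymal cells over that of counting (log axis) against mean UMIs per cell (log axis) for every gene with a mean of at least 0.1, young library on the left and old on the right, with the 5 RNAs in colour and the dashed line at 1. AY036118 lies on the line in both libraries at 0.985 and 1.03, below the genes of like mean in the old library, while Gm42418 lies at 1.35 in the young and 13.7 in the old.

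The ratio of the 2 overlapping genes moved with library and with cell. In young mesenchymal cells there were 16.1 UMIs of AY036118 per 100 of Gm42418 (15.6 to 16.6), and in old mesenchymal cells 30.5 (30.3 to 30.8). Over bins of total UMIs, with all barcodes counted and not mesenchymal cells alone, the young ratio stayed between 14.9 and 17.1. In the old library it was 16.8, 9.39 and 13.3 in the 3 bins below 4000 UMIs and 26.6 to 31.7 in the 4 bins above. The lowest old bin, with barcodes left out of the classes, had a median of 32.7% mitochondrial UMIs. Among the 6 old classes with at least 50 cells it ranged from 27.5 in Schwann cells to 46.2 in mesothelial cells (40.5 to 52.7).

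Over bins of depth the 5 RNAs took different courses in mesenchymal cells. AY036118 was nearly level in the old library, at 522, 505, 501 and 499.7 CPM from the bin starting at 4000 UMIs to the highest, and at 672 CPM (545 to 821) in the 97 cells of 1000 to 2000 UMIs. Its log2 ratio stayed between 3.52 and 3.78 in the 6 bins from 1000 UMIs upward. Gm42418 in the old library fell from 6638 CPM at 1000 to 2000 UMIs and 3824 CPM at 2000 to 4000 to 1680 CPM at 4000 to 8000, with 1595, 1677 and 1910 CPM above. Over the same bins the young level went from 342 and 306 to 269, 263, 248 and 208 CPM. The log2 ratio of Gm42418 thus ranged from 2.60 to 4.28 over these 6 bins. In the 24 young and 22 old cells of 500 to 1000 UMIs it was 4.54, with an old level of 9576 CPM. AY036118 was at log2 2.59 (0.79 to 5.01) there, on 3 young and 16 old UMIs.

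Malat1 fell with depth in both libraries from 1000 UMIs upward, and more steeply in the old. The lowest bin, of 24 young and 22 old cells with 500 to 1000 UMIs, lay below the next at 30334 and 46586 CPM (log2 0.62). From 47314 CPM in young and 63542 CPM in old cells of 1000 to 2000 UMIs it went to 26422 and 23352 CPM at 8000 to 16000 UMIs, and to 14751 and 9029 CPM in the 23 young and 55 old cells of 32000 or more. Its log2 ratio ran from 0.43 through 0.11, -0.02, -0.18 and -0.45 to -0.71, so the direction given for all mesenchymal cells holds for those above 4000 UMIs. Neat1 ran from log2 1.20 at 1000 to 2000 UMIs to 0.04 in the deepest bin, and Kcnq1ot1 from 0.84 (-0.18 to 1.89) to -0.24 (-0.79 to 0.32). Depth itself differed little: the median mesenchymal cell held 9021 young or 9328 old UMIs. Ribosomal protein genes took 33.9% of young and 28.8% of old mesenchymal UMIs, and mitochondrially encoded genes 2.66% and 2.28%. With both sets and the members left out of the total, log2(old/young) over all mesenchymal cells was -0.34 for Malat1, 0.13 for Neat1 and -0.015 for Kcnq1ot1. It was 2.54 for Gm42418 and 3.47 for AY036118. The part of these sets in the courses over depth was not tested.

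**Figure D4:**
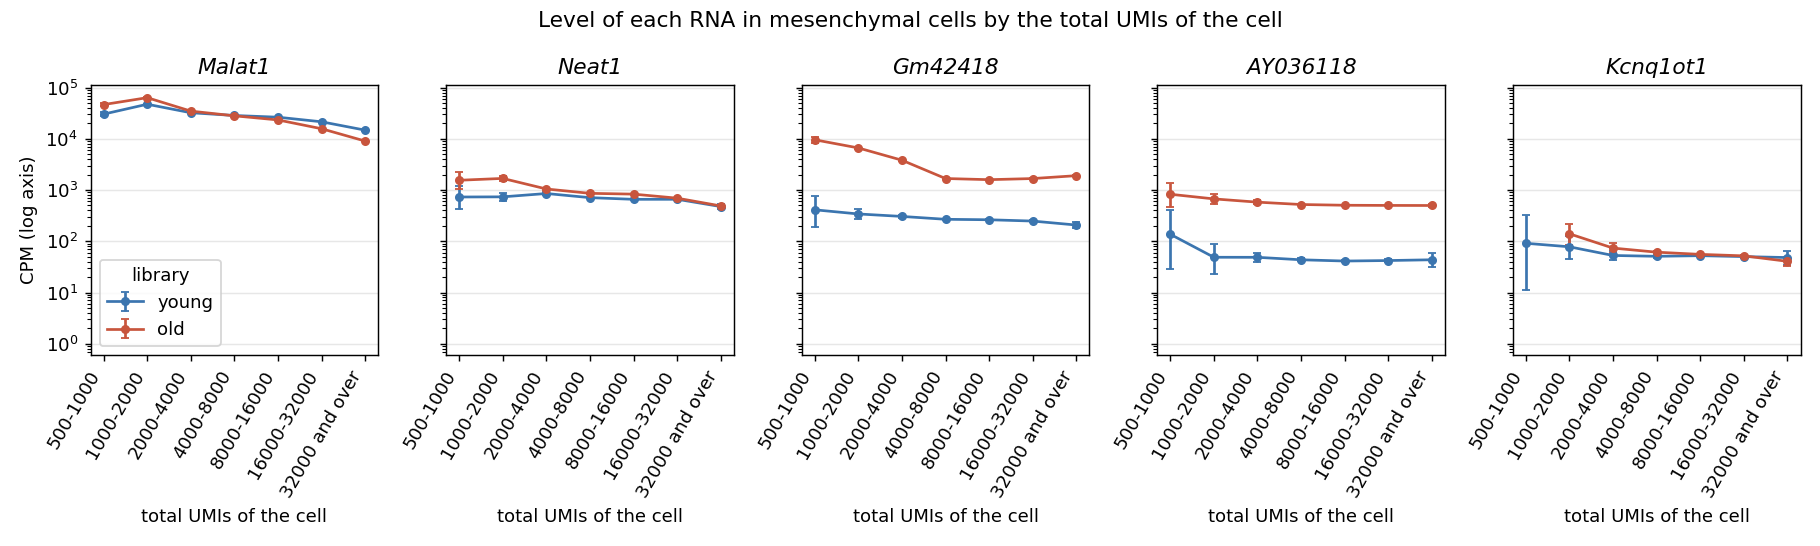
CPM (log axis) of each RNA in mesenchymal cells in 7 bins of the cell's total UMIs, young library in blue and old in red, with exact Poisson 95% intervals; a bin with 0 UMIs is not drawn. The old AY036118 line is nearly level above 4000 UMIs, the old Gm42418 line falls from 6638 to 1680 CPM between 1000 and 8000 UMIs, and the Malat1 lines cross.

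The mitochondrial share of a cell, commonly read as a sign of damage, moved with Gm42418 in the old library. In old mesenchymal cells it stood at 1873 CPM below 2% mitochondrial UMIs, at 1451 CPM at 2 to 4%, and then at 2653, 5588 and 11921 CPM in the next 3 bins up to 10%. The last of these held 39 cells with a median of 2948 UMIs, against 10802 UMIs in the first bin, so that depth moved along with the mitochondrial share and the part of each was not tested. Among old cells of 8000 to 16000 UMIs the r of Gm42418 with that share was -0.17. The young level over the same bins lay between 248 and 351 CPM. AY036118 stood between 505 and 644 CPM in the old bins, and the interval of the highest reached down to 507 CPM. Malat1 rose in both libraries, from 22525 to 88406 CPM in young and from 19015 to 51912 CPM in old cells, and Neat1 from 577 to 1094 and from 707 to 2254 CPM.

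**Figure D5:**
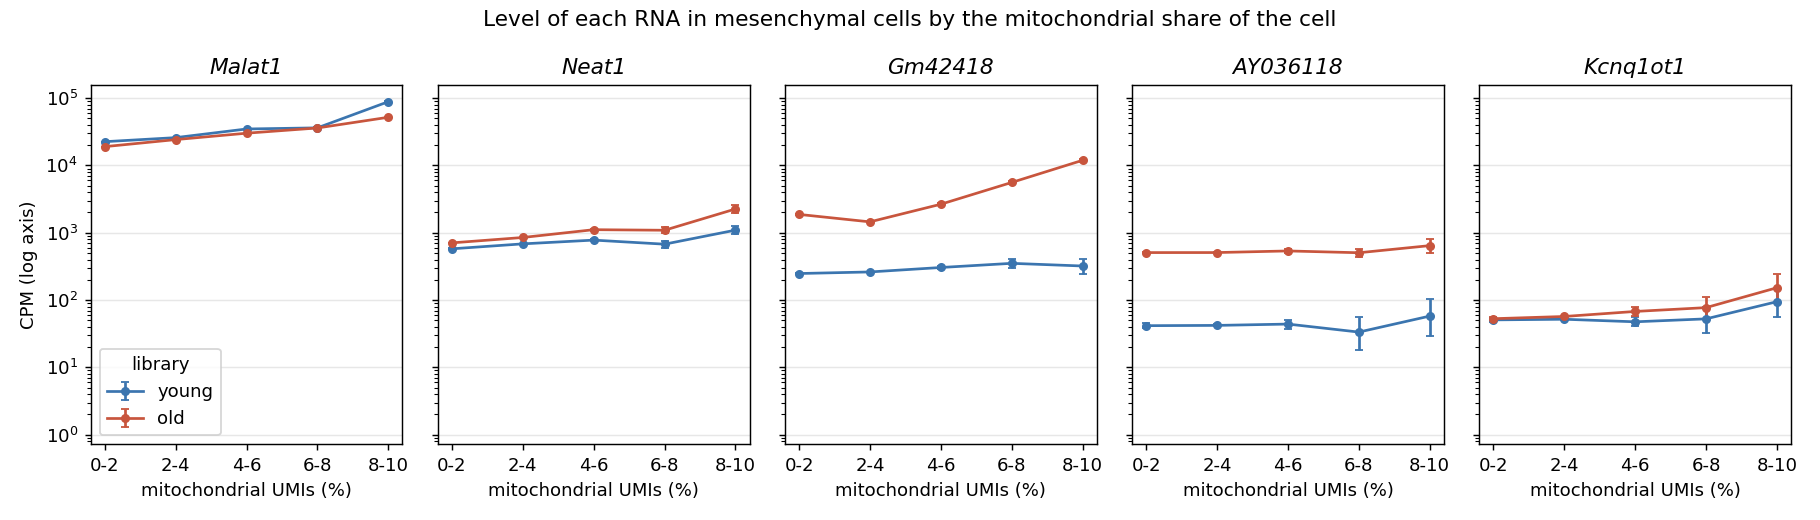
CPM (log axis) of each RNA in mesenchymal cells in 5 bins of the mitochondrial share of the cell's UMIs, young library in blue and old in red, with exact Poisson 95% intervals. Old Gm42418 reaches 11921 CPM in the last bin while young Gm42418 stays at or below 351 CPM, old AY036118 stays between 505 and 644 CPM, and Malat1 and Neat1 end higher than they start in both libraries.

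Barcodes left out of the classes for more than 10% mitochondrial UMIs numbered 240 young and 846 old ones, with medians of 1709.5 and 883 UMIs. Malat1 stood at 84919 CPM in young and 55279 CPM in old ones, and Neat1 at 923 and 2267 CPM. Gm42418 was at 395 and 5614 CPM, Kcnq1ot1 at 130 and 249 CPM and AY036118 at 52.3 and 663 CPM. Relative to mesenchymal cells of the same library, the nuclear RNAs were all higher there. At the other end, cells with under 1000 CPM of Malat1 made up 2.67% of young mesenchymal cells (2.37 to 2.99) and 2.10% of old ones (1.84 to 2.39).

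Across single cells, Malat1 and Neat1 went together more than any other pair of the members. Over mesenchymal cells of 8000 to 16000 UMIs, 5341 young and 5291 old, Pearson's r of Malat1 and Neat1 on the log2(1 + UMIs per 10000) scale was 0.41 among young and 0.38 among old cells. Neat1 was the gene most like Malat1, and Malat1 the gene most like Neat1, among 4489 genes held by at least 20% of cells, and no other gene reached 0.3 with either in both libraries. For Gm42418, AY036118 and Kcnq1ot1 no gene did. The gene most like Kcnq1ot1 was Malat1, at an r of 0.09 among young and 0.07 among old cells. Few counts hold such values down, and by how much was not tested. Over all mesenchymal cells Kcnq1ot1 had means of 0.51 young and 0.58 old UMIs per cell, and AY036118 0.42 in the young library. Gm42418 and AY036118 had an r of 0.02 and 0.07 with each other. Malat1 had an r of -0.36 and -0.24 with the ribosomal protein share of the cell, and Gm42418 of -0.07 among young and -0.41 among old cells. The cells of a correlation share 1 library, and both measures of a pair are shares of the same total.

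The proteins and neighbours that go with these RNAs were described from lists in mesenchymal cells, by the number at least 1.5-fold apart between the libraries. Over all genes with at least 20 UMIs, 19.8% were higher and 12.4% lower, or 15.5% and 15.4% with median-of-ratios scaling. Of 16 paraspeckle proteins, 1 was higher and 0 lower, with a median log2 of 0.23 against 0.13 over all genes. The one was Pspc1, a core paraspeckle protein, at 1.69-fold. Its partners Nono (log2 -0.01) and Sfpq (0.35), which bind Neat1 RNA, stayed inside the limit. Of 20 splicing proteins of nuclear speckles, 2 were higher (the RNA helicase gene Ddx39b at 1.57-fold and Snrnp70 of the U1 particle at 1.52-fold) and 0 lower, median 0.17. Under median-of-ratios scaling 0 of these were higher and 1 was lower. The speckle scaffold genes Son (log2 0.29) and Srrm2 (0.20) were inside the limit too.

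Around Kcnq1ot1, 9 of 13 listed genes of its imprinted domain had at least 20 UMIs, 2 of them higher and 2 lower, median 0.35. With median-of-ratios scaling it was 1 and 2, and Cd81 was inside the limit. The shares over all genes were 19.8% higher and 12.4% lower, or 15.5% and 15.4% with that scaling. Cdkn1c, which encodes a cyclin-dependent kinase inhibitor and is expressed from the maternal chromosome, had a young level of 5.45 CPM and an old one of 1.66 CPM, 3.29-fold lower. Cd81, a tetraspanin gene of the same domain, was 1.51-fold higher, and Ascl2 2.05-fold higher on 45 and 95 UMIs. Kcnq1 itself had 1 and 2 UMIs. Of 11 genes near Malat1 and Neat1 on chromosome 19, 2 were higher and 0 lower, median 0.41, or 1 and 0 with median-of-ratios scaling, where Map3k11 was inside the limit, with Slc25a45, a carrier of the mitochondrial inner membrane, at 2.61-fold and the kinase gene Map3k11 at 1.57-fold. Of 21 other long noncoding RNAs with at least 20 UMIs, 2 were higher and 4 lower, median -0.20, or 2 and 7 with median-of-ratios scaling. Snhg11 was 902 UMIs against 316, and Dnm3os, the host of a microRNA cluster, 1222 against 3303, old against young. Snhg18 was 20412 against 33347, and Trp53cor1 79 against 163. Meg3, the maternally expressed RNA of the Dlk1 region, was at log2 -0.38, inside the limit.

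Genes that make ribosomal RNA were among the lists with a larger share of genes higher in the old library than over all genes. That share over all genes was 19.8%, with 12.4% lower, or 15.5% and 15.4% with median-of-ratios scaling. Of 23 factors of RNA polymerase I transcription and rRNA processing, 12 were at least 1.5-fold higher and 0 lower, median 0.60, or 7 and 0 with median-of-ratios scaling. The named ones were Taf1a (2.26-fold) and Taf1c (2.07-fold), subunits of the promoter selectivity factor, and Nop2 (2.24-fold) and Nop56 (2.09-fold), which act in rRNA maturation. Npm1, the most counted of them, stood at 953 and 715 CPM (log2 -0.41), inside the limit. Among the genes listed for rRNA-like sequence, 2 had at least 20 UMIs and both were higher: Lars2, the mitochondrial leucyl-tRNA synthetase gene, at 4.18 and 10.4 CPM, and Gm26917 at 218 and 430 CPM. Immediate early genes, which respond quickly to stimulation, had 11 of 22 higher and 1 lower, median 0.55, or 8 and 1 with median-of-ratios scaling. Atf3 was 6.19-fold and Ier3 5.98-fold higher, and the 1 lower gene was Fos, by 1.65-fold. Of 13 mitochondrially encoded genes 0 were higher and 1, mt-Atp8, was lower, median -0.22.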

How the data were processed

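The deposited values are whole-number counts of UMIs per gene and cell barcode, unnormalized, and came out of Cell Ranger 3.0.1 per the file headers. Per the submitters' processing notes the build was mm10. Annotation release, use of strand and barcode calling were not given in the sources used here. All 5 members and the lists were chosen with earlier results of these data known. Of 31053 gene IDs, 30934 had a transcript in GENCODE vM21.

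Library totals were 130398999 UMIs (young) and 147166475 (old). The automatic threshold of Scrublet (scanpy 1.11.5) called 0 doublets in both libraries, so the cells with the highest scores were removed, 0.8% per 1000 cells (1302 young, 1504 old). How many doublets remain is not known. Class gates needed at least 4 of a class's 10 markers, cycling cells 5 and contractile cells 6. These numbers, the spread between cells, the range over classes and the limit of 4000 CPM were set after the data were seen. Cells passing several gates (48 old) were left out. UMIs were summed per library and class, and a count of 0 was set to 3 for ratios. With 1 library per age no test was made. Named genes were the members, up to 4 genes of each list with the largest ratio and at least 100 UMIs, and the 3 genes most like each member where r reached 0.3 in both libraries. Nono, Sfpq, Son, Srrm2, Kcnq1, Meg3, Npm1 and Fos, which the rule did not name, were named after their values were seen. Alternatives covered cell filter, doublets, gates, scaling, weighting of cells and depth.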

Additional observations from a re-analysis of the deposited data

Results flagged for a closer look

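Malat1 was flagged because the sign of its difference between the libraries was not the same in the 3 classes with at least 50 cells in each library. Its log2(old/young) was -0.209 in mesenchymal cells, 0.475 in mesothelial cells and 0.655 in Schwann cells. The difference between classes was not tested, since each age has 1 library. Over 9 alternatives the value ran from -0.34 to -0.13 in mesenchymal cells, from 0.33 to 0.50 in mesothelial cells and from 0.41 to 0.73 in Schwann cells, and in cells of 8000 to 16000 UMIs it was -0.18, 0.45 and 0.61, the last on 34 young and 4 old cells. The Schwann cells differed in depth, with a median of 7272 young and 5033 old UMIs, and Malat1 moved with depth in mesenchymal cells. The part of depth in the Schwann value was not tested beyond these cells. Schwann cells also held mesenchymal markers at 8023 CPM in young and 9498 CPM in old cells, and mesothelial cells at 8854 and 8269 CPM. Their part was not tested either.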

How the results depend on the processing

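No paired analysis was possible because each age has 1 library. For log2(old/young) in mesenchymal cells, 23 of 45 values under the alternatives moved by less than their counting interval and 22 by more. A reversal was counted only where the main value was at least 1.5-fold, which left Gm42418 and AY036118, and 0 of their values reversed. Counting intervals are narrow here, so most of these moves are small. Median-of-ratios scaling gave -0.33 for Malat1, 0.13 for Neat1, 2.55 for Gm42418, 3.47 for AY036118 and -0.013 for Kcnq1ot1. A total without the members, mitochondrial and ribosomal protein genes gave -0.34, 0.13, 2.54, 3.47 and -0.015. Weighting cells equally gave -0.13, 0.29, 2.73 and, for Kcnq1ot1, 0.17. Cells of 8000 to 16000 UMIs gave -0.18, 0.34 and 2.60 for the first 3. Malat1 was -0.21 without a cell filter, without doublet removal and with 1 more marker. Gm42418 was 2.70 without a cell filter and 2.65 with the stricter one. Kcnq1ot1 has an opposite sign to that of total scaling under both other scalings. The ratio of AY036118 to Gm42418 in old mesenchymal cells was 29.8 per 100 without a cell filter. Malat1 and Neat1 had an r of 0.54 and 0.50 in cells of 4000 to 8000 UMIs, where Fn1 and Cebpb also reached 0.3 with Malat1 in both libraries. Depth limits Kcnq1ot1 in Schwann cells and macrophages, where 6 to 17 UMIs were counted.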

Other observations

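Gm26917, an annotated lincRNA on the plus strand of chromosome 17 from 39843013 to 39846341, next to CT010467.1, shared the even level of AY036118. It stood at 218, 221 and 210 CPM in young mesenchymal, mesothelial and Schwann cells. In the old library it stood at 430 CPM in mesenchymal, 434 in blood endothelial, 390 in macrophage, 440 in mesothelial, 467 in Schwann cells and 470 in adipocytes. Of the 223 genes compared over the 6 old classes, 2 had a smaller range than its 1.21-fold. Its variance between old mesenchymal cells was 1.04 times that of counting at a mean of 4.50 UMIs per cell, and 1.47 times in the young library at 2.17. In the 630 old cells with at least 4000 CPM of Gm42418 it stood at 428 CPM, against 430 CPM in the other old mesenchymal cells.

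Of 5753 genes with at least 20 UMIs in each of mesenchymal, mesothelial and Schwann cells, 15 had an old level at least 4-fold above the young one in all 3 classes and 0 were as much lower. AY036118 and Gm42418 were 2 of the 15. The others, named after their values were seen, were the chemokine genes Cxcl1, Cxcl2, Cxcl5, Ccl2 and Ccl7, the cytokine gene Il6, the acute-phase genes Saa3 and Hp, Sod3, Ereg, Fndc1, S1pr3 and Cd200.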
